A study of Homo sapiens with 6 samples.

Results

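The genes described here are 35 genes of the unfolded protein response and of its ATF4 branch, chosen by symbol from a list of known members and matched to the gene identifiers of the count tables. All 35 were among the 60675 genes counted and among the 18075 that passed the filter on low counts, with 141 to 153268 reads per library. They were split by role into 4 sensors and transducers, 12 endoplasmic reticulum (ER) chaperones and folding enzymes, 7 genes of ER-associated degradation, and 12 genes of the ATF4 branch. Proteins that fail to fold in the ER activate sensors in its membrane: IRE1 (gene ERN1) splices XBP1 mRNA into the form that encodes an active transcription factor, ATF6 is cut free as a transcription factor, and PERK (EIF2AK3) phosphorylates eIF2. Phosphorylated eIF2 lowers general translation and allows translation of ATF4, a transcription factor for amino acid supply, redox and stress genes, and other eIF2 kinases feed into the same step from amino acid shortage, heme shortage or double-stranded RNA. Secretory cells such as hepatocytes keep this machinery at high levels. Counts per gene measure mRNA only, and show neither XBP1 splicing nor the amounts of these proteins.

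The libraries came from PLC/PRF5, a human hepatocellular carcinoma cell line grown in DMEM with fetal bovine serum, with 3 control libraries and 3 libraries after knockdown of MTR4 (MTR4 KD). MTR4, gene MTREX, is the RNA helicase that feeds nuclear RNA to the exosome. The study describes an MTR4 shRNA induced by doxycycline, and its expression comparison as the inducible cells before and after doxycycline. It also describes stable MTR4 knockdown by shRNA in these cells, with a scramble shRNA as control. The labels do not say which kind of knockdown was used. The study also reports no effect of doxycycline on glycolytic genes in cells carrying an inducible scramble shRNA. The labels do not say whether the control cells received doxycycline or carried a scrambled shRNA. For the genes described here, effects of doxycycline and of MTR4 loss therefore cannot be told apart. The labels do not say whether replicates were separate cultures, so p-values measure the spread between these libraries, which may be technical.

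Totals on genes were 60686786 to 72708682 reads per library. Entries aligned to more than 1 place were 34.7% to 37.5% of all count entries in 3 libraries. These were MTR4 KD replicate 3 with control replicates 1 and 3. The share was 14.8% to 18.2% in the remaining 3. The labels name no batch, and these sets of libraries are called library batches here, with more or fewer multiply aligned reads. Levels are given as CPM, the count scaled to a library size of 1000000. MTREX itself measured 72.2, 87.4 and 74.4 CPM in the controls and 44.6, 48.8 and 44.1 CPM after knockdown, with no overlap. The 11 hepatocyte markers all exceeded 1 CPM, with summed levels of 25548 to 27234 CPM in controls and 25451 to 27282 CPM in MTR4 KD. Of them APOA1, TTR, ALB and FGB rose and KRT8 and KRT18 fell. The 4 immune markers and the 2 endothelial markers that were matched averaged under 1 CPM over the 6 libraries. Of the immune markers CD68 was near 0, and CD14 fell from a mean of 1.19 to 0.469 CPM (log2 fold change -1.43, edgeR adjusted p = 0.00821). Their summed level was 1.02 to 3.73 CPM in controls and 0.489 to 1.32 CPM in MTR4 KD, and its part in the results was not tested. Of the fibroblast markers 3 of 5 exceeded 1 CPM, with sums of 7.12 to 12.4 CPM in controls and 5.56 to 10.3 CPM in MTR4 KD.

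With library batch and condition in 1 edgeR quasi-likelihood model, 19 of the 35 genes differed between MTR4 KD and control at an adjusted p under 0.05, against 20.2% of all 18075 tested genes (3649 genes). The changes went both ways: 7 genes rose (9.43% of all genes did) and 12 fell (10.8% did). NUPR1, ATF5, DDIT3, DNAJB9, HERPUD1, ASNS and DNAJC3 rose. GDF15, CHAC1, ATF3, PPP1R15A, PDIA6, EDEM1, ATF6, HSP90B1, ATF4, CALR, DERL1 and PDIA4 fell. Of the 33 genes with a mean of at least 10 CPM, 18 passed, against 28.4% of the 9723 tested genes at that level. Fold changes and percent changes of single genes come from this model, so they can differ from the ratio of the group means. The members' median log2 fold change was -0.06, beside 0.01 over all tested genes. NUPR1 and GDF15 exceeded a 1.5-fold change and the other 17 that passed did not, while 4.35% of all tested genes passed both limits.

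**Figure D1:**
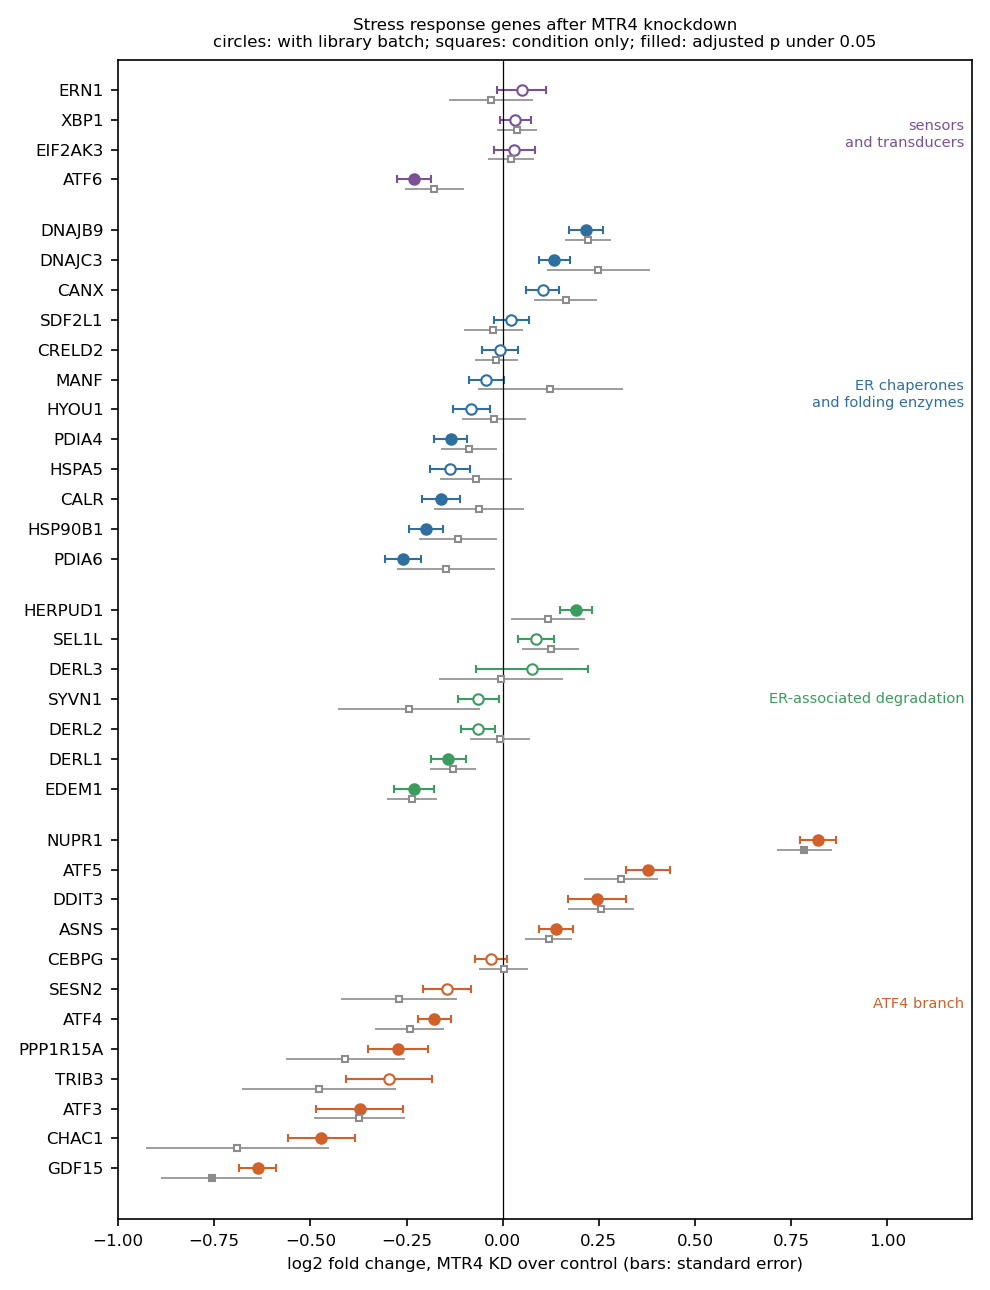
Log2 fold change of MTR4 KD over control (horizontal axis) for each of the 35 genes, grouped by role, with bars of 1 standard error. Circles come from the model with library batch, grey squares from condition only, and filled symbols mark an adjusted p under 0.05. NUPR1 at 0.82 and GDF15 at -0.64 lie apart from the remaining genes, which fall between -0.47 and 0.38.

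Most of these calls rested on the model of the library batch. With condition as the model's only term, NUPR1 (higher) and GDF15 (lower) passed and the other 17 did not, while 3.6% of all tested genes passed (650 genes), 1.48% higher and 2.12% lower. With the replicate number as a block in place of the library batch, CHAC1, also lower, passed beside them, and 4.74% of all genes passed, 1.89% higher and 2.85% lower. Each of 6 genes, NUPR1, GDF15, ATF5, CHAC1, DNAJB9 and PDIA6, also passed with any 1 library left out, and the other 13 lost the call without at least 1 library. In single fits with 1 library left out, 12.9% to 15.8% of all tested genes passed. The share of all genes that passed in every such fit was not counted. The MTR4 KD libraries lay entirely above the controls for 6 genes (12.1% of all tested genes did) and entirely below them for 5 (12.6% did). Within both batches the difference had the same sign for 32 of the 35 genes, against 67.9% of all tested genes.

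NUPR1 encodes a small chromatin-associated stress protein that is induced by ATF4. It lies on chromosome 16 at 28532708 to 28538974 (GRCh38, RefSeq). It measured 98.0, 97.4 and 106 CPM in the controls and 163, 171 and 186 CPM in the MTR4 KD libraries, values being given here and throughout in the order of the replicate numbers. All 3 MTR4 KD libraries were above all 3 controls. The means were 100.5 ± 4.79 and 173 ± 11.5 CPM (SD, n = 3). In the model NUPR1 rose 1.77-fold, a log2 fold change of 0.82 (SE 0.0463, edgeR adjusted p = 9.76e-08). Within the batch of more multiply aligned reads its log2 difference came to 0.86, and within the other to 0.77, the order kept for all within-batch values. With condition only it was 0.78 (adjusted p = 0.0024). In the annotation used here, 16.5% of the NUPR1 exon length overlaps another gene. The counts were made with a different annotation, so the effect of this overlap on NUPR1 counts is uncertain.

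GDF15, on chromosome 19 at 18386158 to 18389176, encodes a secreted cytokine of the TGF-beta family that stress induces through ATF4 and DDIT3. It moved opposite to NUPR1. The controls measured 397, 292 and 383 CPM and the MTR4 KD libraries 204, 193 and 237 CPM, and the highest MTR4 KD library was below the lowest control. The means were 357 ± 57.2 and 211 ± 22.8 CPM (SD, n = 3). With the library batch taken into account GDF15 fell by 35.7%, a log2 fold change of -0.64 (SE 0.0485, edgeR adjusted p = 1.34e-06). Within batches the log2 differences were -0.72 and -0.55, and with condition only the fold change was -0.76 (adjusted p = 0.0279).

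The transcription factors of the ATF4 branch did not share a direction. ATF4 mRNA measured 238, 218 and 254 CPM in controls and 185, 194 and 222 CPM after knockdown. Control replicate 2 was the lowest control and lay below MTR4 KD replicate 3, so the groups overlapped, yet within each batch MTR4 KD was lower. ATF4 fell by 11.6% (log2 fold change -0.18, SE 0.0437, edgeR adjusted p = 0.012). Its call was lost without control replicate 2 or MTR4 KD replicate 1, with adjusted p up to 0.092 and log2 values of -0.20 to -0.15 over the 6 libraries left out in turn. The annotation holds 4 pseudogenes named after ATF4. ATF5, a relative of ATF4 that is also controlled through translation and acts on mitochondrial protein homeostasis, went the other way. Its levels were 40.4, 32.7 and 36.8 CPM in controls and 42.1, 44.9 and 49.0 CPM in MTR4 KD, without overlap, although the lowest MTR4 KD library exceeded the highest control by little. ATF5 rose by 29.9%, with a log2 fold change of 0.38 (SE 0.0569, edgeR adjusted p = 4.80e-04).

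DDIT3 encodes CHOP, a factor that acts downstream of ATF4 and promotes cell death under lasting stress. It measured 12.9, 15.2 and 14.5 CPM in controls and 16.7, 16.5 and 17.6 CPM in MTR4 KD, again with all MTR4 KD libraries above all controls. DDIT3 rose by 18.4%, with a log2 fold change of 0.24 (SE 0.0759, edgeR adjusted p = 0.0377). ATF3, an early factor of many stress responses, was lower in every MTR4 KD library (4.38, 4.84 and 5.37 CPM) than in any control (5.82, 6.84 and 6.24 CPM), with a log2 fold change of -0.37 (SE 0.114, edgeR adjusted p = 0.0355). It rested on 269 to 495 reads per library, and within the batches it was lower by unequal amounts, with log2 differences of -0.17 and -0.57. CEBPG, a dimer partner of ATF4, measured 79.1 ± 3.74 CPM in controls and 79.2 ± 3.24 CPM in MTR4 KD (SD, n = 3) and did not pass (adjusted p = 0.666). The calls of DDIT3 and ATF3 depended on single libraries. DDIT3 lost its call without control replicate 1 or 3 or any of the MTR4 KD libraries, at log2 values of 0.14 to 0.36. ATF3 lost it without control replicate 2 or 3 or MTR4 KD replicate 1 or 2, at -0.56 to -0.17, and did not pass in DESeq2's Wald test. Both DDIT3 and ATF5 counts are uncertain, since 39.6% of the exon length of DDIT3 and 22.1% of that of ATF5 overlap other annotated genes. The strand setting of the counting is not given in the sources used here.

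**Figure D2:**
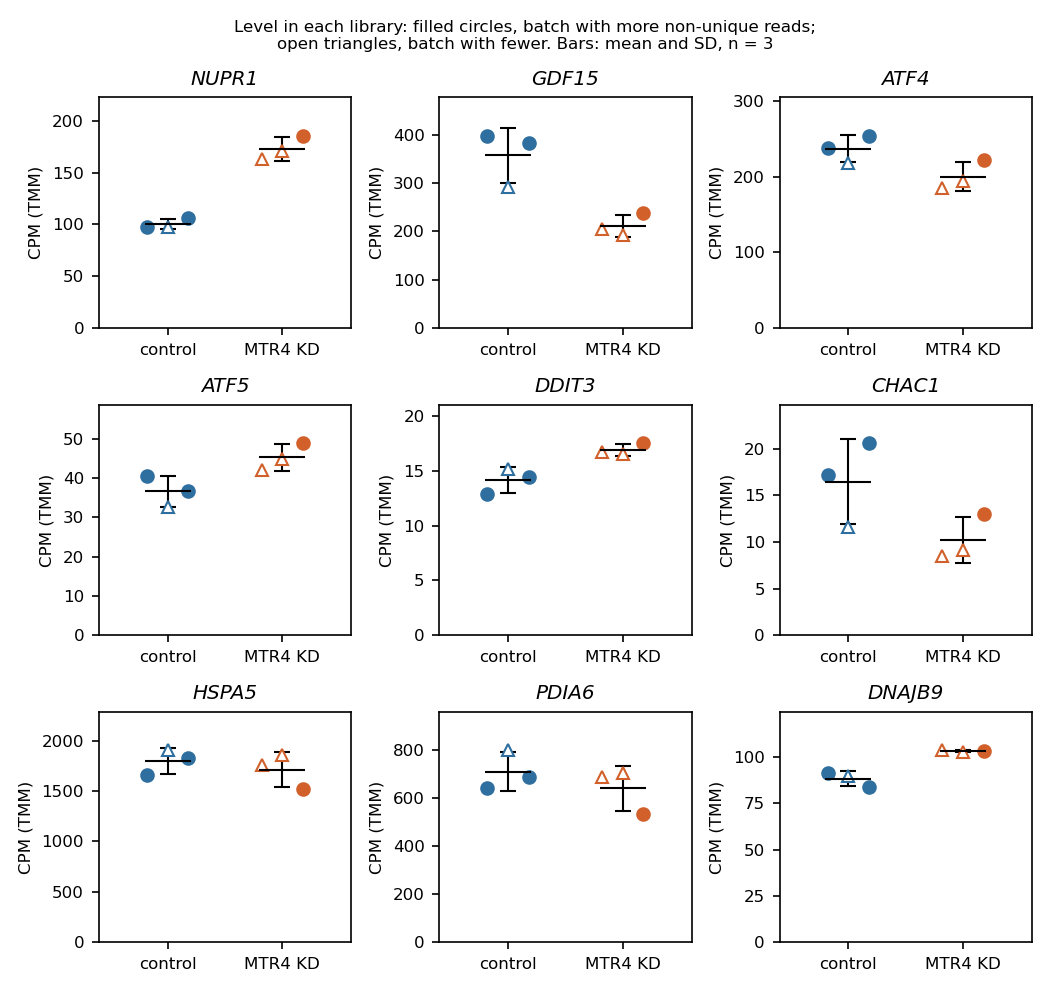
CPM in each of the 6 libraries for 9 of the genes, 1 panel per gene with its own axis from 0, with controls and MTR4 KD side by side and bars for the mean and SD (n = 3). Filled circles are libraries of the batch with more multiply aligned (non-unique) reads and open triangles those with fewer. NUPR1, GDF15, ATF5 and DDIT3 show no overlap between the groups, while HSPA5 and PDIA6 overlap.

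CHAC1, another target of ATF4, encodes an enzyme that degrades glutathione. CHAC1 measured 17.2, 11.6 and 20.6 CPM in controls and 8.49, 9.13 and 13.0 CPM in MTR4 KD. Control replicate 2 lay below MTR4 KD replicate 3, which belongs to the other batch, and within each batch MTR4 KD was lower. CHAC1 fell by 27.9% (log2 fold change -0.47, SE 0.0872, edgeR adjusted p = 0.0021), by 0.53 and 0.40 on the log2 scale within the batches. With condition only, the log2 value was -0.69 (adjusted p = 0.181).

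PPP1R15A encodes GADD34, the phosphatase subunit that reverses eIF2 phosphorylation. Its levels were 21.6, 15.7 and 23.3 CPM in controls and 14.0, 14.9 and 16.8 CPM in MTR4 KD, and the fall of 17.2% passed at a log2 fold change of -0.27 (SE 0.0782, edgeR adjusted p = 0.0266). It lost the call without control replicate 1 or 3 or MTR4 KD replicate 1 or 3 (log2 -0.42 to -0.11). TRIB3, a pseudokinase that restrains ATF4 and CHOP, measured 14.4, 9.67 and 17.2 CPM in controls and 9.42, 9.37 and 10.8 CPM in MTR4 KD. The log2 fold change of TRIB3 was -0.30 (SE 0.112, edgeR adjusted p = 0.0813), with -0.54 and -0.04 within the batches. SESN2, a leucine sensor upstream of mTORC1, measured 35.5 ± 5.45 CPM in controls and 29.5 ± 5.01 CPM in MTR4 KD (SD, n = 3), with a log2 fold change of -0.15 (SE 0.0624, edgeR adjusted p = 0.123). TRIB3 passed without control replicate 2 (log2 -0.55) and without the filter on low counts, and SESN2 without control replicate 1 (log2 -0.19).

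ASNS, asparagine synthetase, was the ATF4 target for amino acid supply on the list. Its levels were 117, 108 and 118 CPM in controls and 127, 122 and 124 CPM in MTR4 KD, with no overlap. The rise of 10.2% passed at a log2 fold change of 0.14 (SE 0.044, edgeR adjusted p = 0.0405), and it lost the call without any of the controls or without MTR4 KD replicate 1 or 2 (log2 0.07 to 0.21), and without the filter on low counts. ASNS counts are uncertain, since 5 pseudogenes are named after it and 49.3% of its exon length overlaps another gene of the annotation used here. In all, 4 of the 12 genes of the ATF4 branch rose, 5 fell and 3 did not pass, and the median log2 fold change was -0.16. Over all tested genes 9.43% rose and 10.8% fell.

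Promoters of the members were searched for the letters TGATGCAA, a form of the ATF4-binding amino acid response element, on both strands from 250 bases before to 50 bases after each RefSeq start on GRCh38.p14. A promoter was held for 32 of the 35 members, NUPR1, DERL1 and DERL3 being without one. The letters occurred in CHAC1, HERPUD1 and CEBPG, and in 1.08% of 27305 genes. No match in the other promoters says only that these letters are not in this window. CHAC1 fell, HERPUD1 rose and CEBPG did not pass, so the 3 members that held these letters had no common direction. The windows of CHAC1 (chr15:40953257-40953274) and HERPUD1 (chr16:56931961-56931978) are shown because both genes passed. Both genes lie on the plus strand and each window is printed on it, where the element reads on the opposite strand as TTGCATCA in capitals, 209 and 176 bases before the start. PPP1R15A (chr19:48872358-48872375, plus strand) is shown for its cAMP response element TGACGTCA, in capitals 58 bases before the start, which 2.25% of all genes held and which no other member did.
CHAC1: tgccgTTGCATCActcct
HERPUD1: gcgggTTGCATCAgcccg
PPP1R15A: cttcgTGACGTCAgcacg

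Of the 4 sensors and transducers, ATF6 alone passed, and it fell, beside 10.8% of all tested genes that fell. ATF6 measured 81.2, 86.2 and 78.4 CPM in controls and 75.4, 75.9 and 66.0 CPM in MTR4 KD, without overlap, and its log2 fold change was -0.23 (SE 0.0433, edgeR adjusted p = 0.00229). Without MTR4 KD replicate 3, the lowest library, the value was -0.18 (adjusted p = 0.0505). EIF2AK3, the PERK kinase, measured 31.3, 30.6 and 30.6 CPM in controls and 31.0, 31.2 and 31.8 CPM in MTR4 KD, with a log2 fold change of 0.03 (SE 0.0526, edgeR adjusted p = 0.747). ERN1, the IRE1 kinase and nuclease, ranged from 14.9 to 18.3 CPM over all libraries with a log2 fold change of 0.05 (SE 0.0635, edgeR adjusted p = 0.64). XBP1 measured 568, 574 and 569 CPM in controls and 589, 584 and 582 CPM in MTR4 KD. Every MTR4 KD library was above every control for XBP1, by a margin that the model did not separate from zero (log2 fold change 0.03, SE 0.0399, edgeR adjusted p = 0.617). Spliced and unspliced XBP1 are counted together.

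Among the 12 chaperones and folding enzymes, 2 rose, 4 fell and 6 did not pass, with a median log2 fold change of -0.06. Of all tested genes 9.43% rose and 10.8% fell. HSPA5, which encodes BiP, the main Hsp70 of the ER and the usual marker of the response, measured 1657, 1904 and 1827 CPM in controls and 1758, 1860.2 and 1517 CPM in MTR4 KD. The highest library was a control and the lowest was MTR4 KD replicate 3, with the others interleaved. HSPA5 did not pass, with a log2 fold change of -0.14 (SE 0.0524, edgeR adjusted p = 0.0862). DESeq2, limma-voom and the fit without the filter on low counts did call it lower, and so did the edgeR fit without control replicate 2 (log2 -0.20).

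The 4 that fell were PDIA6, HSP90B1, CALR and PDIA4. PDIA6, a disulfide isomerase, measured 642, 799 and 689 CPM in controls and 686, 703 and 534 CPM in MTR4 KD. Its groups overlapped, and the separation appeared only against libraries of the same batch, with log2 differences of -0.32 and -0.20. PDIA6 fell by 16.5% (log2 fold change -0.26, SE 0.0473, edgeR adjusted p = 0.0019), and 25.2% of its exon length overlaps the gene ATP6V1C2. HSP90B1, the ER form of Hsp90 called GRP94, measured 1400.3 ± 124 CPM in controls and 1292 ± 140.1 CPM in MTR4 KD (SD, n = 3), with a log2 fold change of -0.20 (SE 0.0438, edgeR adjusted p = 0.00617). CALR, the lectin chaperone calreticulin, fell by 10.6% (log2 fold change -0.16, SE 0.0491, edgeR adjusted p = 0.0347), and PDIA4, another disulfide isomerase, fell by 8.96% (log2 fold change -0.14, SE 0.0437, edgeR adjusted p = 0.0447). HSP90B1 lost its call without MTR4 KD replicate 3 (log2 -0.15, adjusted p = 0.0595). CALR lost it without control replicate 1 or 3 or MTR4 KD replicate 1 or 3 (log2 -0.22 to -0.10). PDIA4 lost it without control replicate 1 or 3 or any MTR4 KD library (log2 -0.18 to -0.08), and under size factors of DESeq2 or total counts.

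The chaperones that rose were both J-domain co-chaperones of BiP. DNAJB9, known as ERdj4, measured 91.5, 89.6 and 83.6 CPM in controls and 104, 102 and 103 CPM in MTR4 KD. The MTR4 KD libraries were close together and all above the controls. DNAJB9 rose by 16.2% (log2 fold change 0.22, SE 0.0454, edgeR adjusted p = 0.00471), with 0.23 and 0.20 within the batches. DNAJC3, the PERK-inhibiting co-chaperone p58IPK, measured 198, 254 and 198 CPM in controls and 271, 283 and 219 CPM in MTR4 KD, with overlap. Its log2 fold change was 0.13 (SE 0.0403, edgeR adjusted p = 0.0331), and the call was lost with any library left out (log2 0.12 to 0.15) and without the filter on low counts. CANX, the membrane-bound partner of calreticulin, measured 1964 ± 138 CPM in controls and 2199 ± 163 CPM in MTR4 KD (SD, n = 3) and did not pass in edgeR (adjusted p = 0.103), although DESeq2 and limma-voom called it higher. The nucleotide exchange factor HYOU1, the BiP cofactor SDF2L1 and the secreted ER proteins CRELD2 and MANF had log2 fold changes of -0.08, 0.02, -0.01 and -0.04, none of which passed.

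The ER stress response element, here CCAAT followed after 9 unspecified bases by CCACG on either strand, is the site that ATF6 and XBP1 bind together with NF-Y. It occurred in the promoter windows of CALR, CANX, CRELD2, HSP90B1, HSPA5, PDIA6 and XBP1, and in 0.0916% of all genes (25 of 27305). Of these 7 members CALR, HSP90B1 and PDIA6 fell and the other 4 did not pass, beside 10.8% of all tested genes that fell. None of the 7 was called higher, and a link between these letters and the changes was not tested. A shorter form, ATTGG and CCACG with 1 base between them, occurred in HERPUD1, HYOU1 and SDF2L1 and in 0.0696% of genes. The UPR element TGACGTGG occurred in HYOU1, where it overlaps the shorter form, and in 0.927% of genes. The windows of the members that passed are shown with that of HSPA5, the reference gene of the response, which was chosen after its values were seen. They are PDIA6 at chr2:10812848-10812876 (minus strand, 86 bases before the start), HSP90B1 at chr12:103930211-103930239 and chr12:103930316-103930344 (plus strand, 194 and 89 bases before), CALR at chr19:12938379-12938407 (plus strand, 225 bases before), HERPUD1, with the shorter form, at chr16:56932020-56932040 (plus strand, 117 bases before) and HSPA5 at chr9:125241386-125241414 (minus strand, 66 bases before). Capitals mark the CCAAT and CCACG parts, or ATTGG and CCACG in HERPUD1. In CALR and at the second place in HSP90B1 they read on the opposite strand as CGTGG and ATTGG.
PDIA6: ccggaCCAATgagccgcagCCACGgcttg
HSP90B1, first: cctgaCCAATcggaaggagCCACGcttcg
HSP90B1, second: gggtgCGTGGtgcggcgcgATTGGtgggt
CALR: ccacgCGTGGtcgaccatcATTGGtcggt
HERPUD1: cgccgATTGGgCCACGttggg
HSPA5: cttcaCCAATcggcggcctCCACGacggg

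In ER-associated degradation, 1 of 7 genes rose, 2 fell and 4 did not pass, beside 9.43% of all tested genes that rose and 10.8% that fell. HERPUD1, a ubiquitin-like protein that assembles the retrotranslocation complex, measured 91.7, 80.8 and 94.3 CPM in controls and 88.5, 93.2 and 108 CPM in MTR4 KD. The groups overlapped, and within each batch MTR4 KD was higher. HERPUD1 rose by 14.1% (log2 fold change 0.19, SE 0.0424, edgeR adjusted p = 0.00673), and without MTR4 KD replicate 3 the adjusted p was 0.053 at a log2 value of 0.18. EDEM1, which directs misfolded glycoproteins to degradation, fell in all 3 MTR4 KD libraries to 71.3, 67.3 and 66.0 CPM from 85.0, 77.0 and 78.9 CPM in controls. The groups did not overlap, and the log2 fold change was -0.23 (SE 0.0523, edgeR adjusted p = 0.00734), or -0.14 without MTR4 KD replicate 3 (adjusted p = 0.164). DERL1, a channel component of the ER membrane, fell by 9.35%, also without overlap (log2 fold change -0.14, SE 0.0457, edgeR adjusted p = 0.0448), and lost the call without control replicate 1 or 3 or any MTR4 KD library (log2 -0.19 to -0.08), with DESeq2, and under its size factors or total counts.

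SEL1L and SYVN1, the scaffold and the ubiquitin ligase of the same complex, did not pass. SEL1L had a log2 fold change of 0.09 (SE 0.0472, edgeR adjusted p = 0.231). SYVN1 measured 149, 99.7 and 156 CPM in controls and 102, 105 and 135 CPM in MTR4 KD. Its levels followed the library batch, with the 3 libraries of fewer multiply aligned reads between 99.7 and 105 CPM, and its within-batch log2 differences had opposite signs (-0.18 and 0.05). Without control replicate 2, SYVN1 passed at a log2 value of -0.18. DERL2 and DERL3, relatives of DERL1, had log2 fold changes of -0.06 and 0.08. DERL3 rested on 141 to 184 reads per library, and 77.0% of its exon length overlaps the neighbouring gene SMARCB1.

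Compared per kilobase of transcript, the chaperones led the list in control cells. CALR was highest at 719 CPM per kb, followed by HSP90B1 at 503, PDIA4 at 479, HSPA5 at 458 and CANX at 399.5. The ranges of the 3 controls overlapped between each of HSP90B1, PDIA4 and HSPA5 and the next in that order, and not between CALR and HSP90B1 or between CANX and XBP1. XBP1 at 318, PDIA6 at 311 and GDF15 at 298 CPM per kb came next with overlapping ranges. At the low end were DERL3 at 0.824, ERN1 at 2.09, ATF3 at 3.25 and TRIB3 at 5.85 CPM per kb. Of the 34 neighbouring pairs in the order, 23 had overlapping control ranges.

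The genes also differed between the library batches. Between these, 22 of the 35 genes differed at an adjusted p under 0.05 in the edgeR model, 11 in each direction, against 31.5% of all tested genes (15.3% higher and 16.2% lower in the batch with fewer). In the batch with fewer multiply aligned reads, 9 of the 12 chaperones were higher and 1 was lower, while 7 of the 12 genes of the ATF4 branch were lower and none was higher. MANF was 0.51 higher on the log2 scale in that batch, DNAJC3 0.35 and PDIA6 0.32. CHAC1 had a batch difference of -0.63, SYVN1 of -0.50, TRIB3 of -0.46 and SESN2 of -0.38. For 23 of the 35 genes the batch difference exceeded the condition difference, against 55.3% of all tested genes. Controls held 1 library of this batch and MTR4 KD held 2, so a fit without the batch mixes these differences into the condition.

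**Figure D3:**
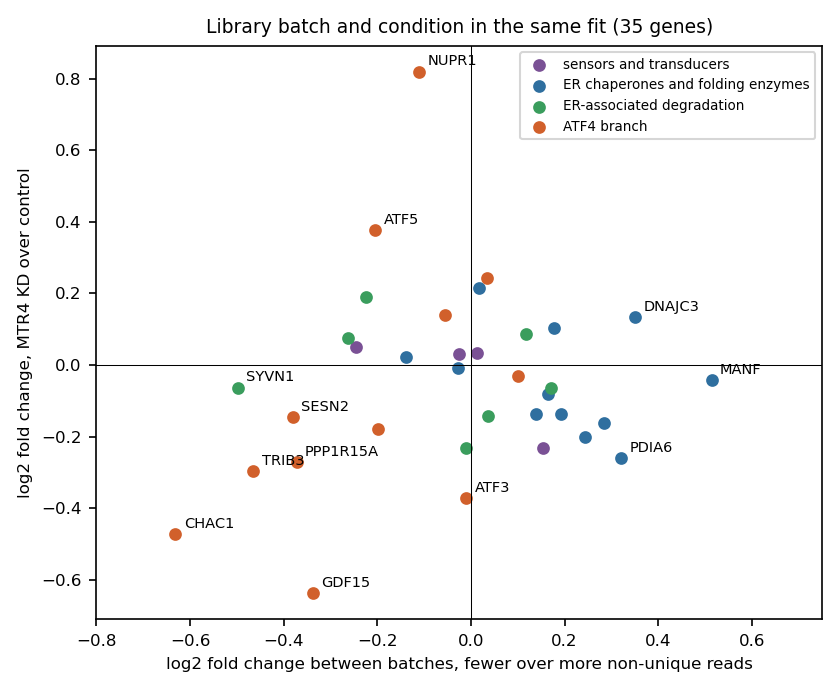
Log2 difference between library batches, fewer over more multiply aligned reads (horizontal axis), and log2 fold change of MTR4 KD over control (vertical axis), 1 point per gene, coloured by role. Chaperones lie mostly at positive and ATF4-branch genes mostly at negative batch differences, with CHAC1 lowest at -0.63 and MANF highest at 0.51.

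The condition effect itself was compared between the batches. In a test of the interaction, none of the 35 genes passed (edgeR, lowest adjusted p = 0.227) while 176 genes of all tested (0.974%) did. At an unadjusted p under 0.05 were 4 members (11.4%) and 2013 of all tested genes (11.1%), so the members' share was near the background. The batches hold 2 controls against 1 MTR4 KD library and 1 against 2, and no test within a single batch was run.

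**Figure D4:**
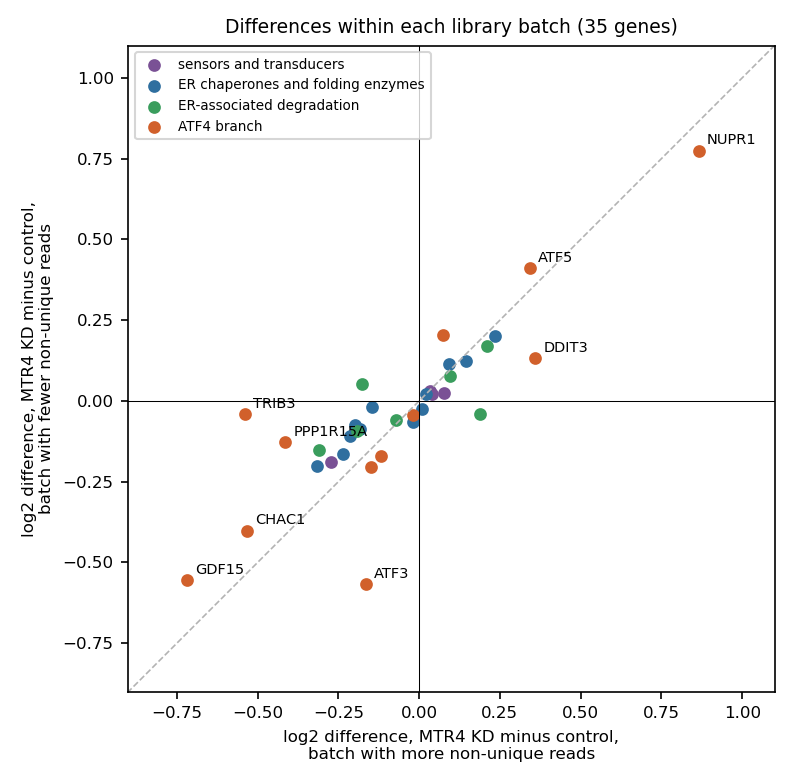
Log2 difference of MTR4 KD minus control within the batch with more multiply aligned reads (horizontal axis) and within the batch with fewer (vertical axis), 1 point per gene, with the diagonal of equal differences. NUPR1 at 0.86 and 0.77 and GDF15 at -0.72 and -0.55 lie far out near the diagonal, and 32 of 35 genes have the same sign on both axes.

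The other genes of these pathways were taken from 8 lists of 117 genes, 116 of them tested. Of these, 7 rose and 23 fell (25.9% passed, beside 20.2% of all tested genes), with a median log2 fold change of -0.03. Of 11 tested stress effectors of the ATF4 response, 1 rose and 5 fell, with a median of -0.29, and FGF21 did not pass the filter on low counts. DDIT4, an inhibitor of mTORC1, had the largest change of all these genes, from 44.7, 48.7 and 51.4 CPM in controls to 17.0, 18.4 and 17.7 CPM in MTR4 KD, with every MTR4 KD library below every control. Its log2 fold change was -1.45 (SE 0.0667, edgeR adjusted p = 1.86e-08), and it also passed with condition only (adjusted p = 5.05e-04). STC2, a secreted glycoprotein of stressed cells, fell from 84.2 ± 1.74 to 51.4 ± 0.727 CPM (SD, n = 3; log2 fold change -0.71, SE 0.0438, edgeR adjusted p = 1.91e-07). VLDLR, a lipoprotein receptor, fell by 0.91 on the log2 scale at levels near 1 CPM, and KLHL24, a ubiquitin ligase adaptor, rose by 0.25. Both lost the call without MTR4 KD replicate 3 (adjusted p = 0.135 and 0.0849).

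Genes of amino acid synthesis and transport moved both ways, as the listed members did, with 3 of 16 higher, 5 lower and a median of 0.01. Over all tested genes 9.43% were higher and 10.8% lower. PSPH, the last enzyme of serine synthesis, measured 138, 131 and 129 CPM in controls and 179, 178 and 182 CPM in MTR4 KD, without overlap, and rose at a log2 fold change of 0.45 (SE 0.0424, edgeR adjusted p = 9.21e-06). PSAT1, the enzyme before it, rose by 0.17, and SLC3A2, the heavy chain of several amino acid exchangers, by 0.19. The transporters SLC7A1 for cationic amino acids, SLC38A2 for small neutral ones and SLC1A5 for glutamine fell. The others of the 5 that fell had smaller changes and were enzymes, so the fall was not limited to transporters. SLC38A2 fell from 453 ± 19.1 to 329.5 ± 12.6 CPM (SD, n = 3; log2 fold change -0.45, SE 0.0479, edgeR adjusted p = 2.47e-05), SLC7A1 by 0.46 and SLC1A5 by 0.40 on the log2 scale. PSPH and the 3 transporters passed with condition only as well. The list of cytosolic tRNA synthetases held 13 genes, among them the tRNA exporter XPOT. Of these, LARS1 rose by 0.13 and TARS1 fell by 0.14, with a median of -0.01.

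The list of eIF2 kinases, eIF2 and eIF2B held 14 genes, with PPP1R15B, GCN1 and EIF2A among them. Of these 1 passed, beside 20.2% of all tested genes, or 28.4% of those averaging at least 10 CPM. It was EIF2AK1, the heme-regulated kinase, which fell by 0.15 on the log2 scale (edgeR adjusted p = 0.0188). Among 16 other ER folding enzymes 5 fell and none rose, beside 10.8% of all tested genes that fell and 9.43% that rose. ERO1A, the oxidase that recharges disulfide isomerases, fell in all 3 MTR4 KD libraries to 162, 146 and 165 CPM from 274, 243 and 238 CPM in controls, at a log2 fold change of -0.64 (SE 0.0575, edgeR adjusted p = 5.67e-06), and also with condition only (adjusted p = 0.00699). The disulfide isomerase PDIA5 fell by 0.38 and the prolyl isomerase FKBP14 by 0.26. Of the other membrane-bound transcription factors and their processing enzymes, 3 of 10 fell and none rose, with CREB3L1 at -0.65, the hepatic factor CREB3L3 at -0.22 and MBTPS1, the protease that cuts ATF6, at -0.15. Among 14 other degradation genes EDEM3 rose by 0.22 and ERLEC1 fell by 0.19. Of 22 genes of ER translocation and glycosylation, the signal peptidase subunit SEC11C rose by 0.13, and the translocon-associated SSR2 and the oligosaccharyltransferase subunit RPN1 fell by 0.15 and 0.13, and the other 19 did not pass.

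Of the 24 genes named from these lists, PSPH, SLC7A1, SLC38A2, SLC1A5, DDIT4, STC2, ERO1A, PDIA5, FKBP14 and CREB3L1 passed with any 1 library left out, and the other 14 did not. How many of all called genes did so was not counted. Besides VLDLR and KLHL24, ERLEC1 lost the call without MTR4 KD replicate 3 alone and SLC3A2 without control replicate 2 alone. EDEM3 lost it without control replicate 2 or MTR4 KD replicate 1, and PSAT1 without either of these or control replicate 3. MBTPS1 and SSR2 lost it without control replicate 2 or MTR4 KD replicate 1 or 3, EIF2AK1 without control replicate 1 in place of 2, and CREB3L3 without control replicate 3 in place of 2. LARS1, TARS1 and SEC11C lost it without 5 of the 6 libraries each, and RPN1 without any of the 6. Over these fits CREB3L3 ranged from -0.30 to -0.13 and VLDLR from -1.17 to -0.67 on the log2 scale, and none of the 14 changed sign.

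**Figure D5:**
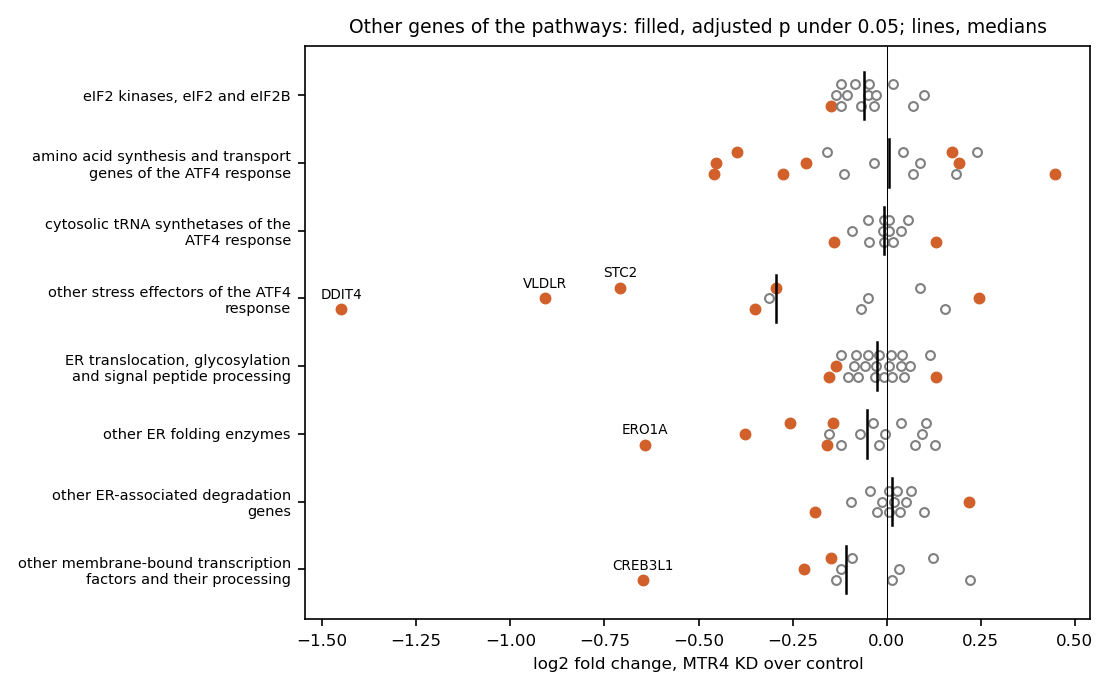
Log2 fold change of MTR4 KD over control for the genes of the 8 other pathway lists, 1 point per gene and 1 row per list, filled where the adjusted p was under 0.05, with a line at each list's median. DDIT4 is the lowest point at -1.45 and PSPH the highest at 0.45, and the medians lie between -0.29 and 0.01.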

How the data were processed

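The authors aligned the RNA-seq reads with HISAT2 2.1.0 to GRCh38 and counted them per gene with HTSeq, per the submitters' processing notes, and deposited raw read counts for 60675 genes in each of 6 libraries, with DESeq2 also named there. Reads that HTSeq assigned to no gene stayed out of library sizes and tests. Entries aligned to more than 1 place were 14.8% to 37.5% of all entries, and libraries above 30% formed the batch with more of them. The strand setting of the counting is not given in the sources used here.

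Groups came from the sample labels. Counts were fitted in R 4.3.3 with edgeR 4.0.16 (filterByExpr with a minimum count of 10, TMM scaling, glmQLFit and glmQLFTest, two-sided, with terms for library batch and condition), and p-values were adjusted by Benjamini-Hochberg over the 18075 genes tested, with a threshold of 0.05. CPM are counts scaled to 1000000 reads of the TMM-scaled library size. Within-batch differences are means of log2 CPM with a prior count of 2. The members, the other pathway lists and the batch model were chosen with earlier results of these data known. All 35 members are named, and at most 3 genes per direction of each other list, those with the largest change among genes that passed. Sequences were shown for the promoter matches of members that passed, and for HSPA5, which did not pass and was added after its values were seen.

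Alternatives were DESeq2 size factors, total counts, upper-quartile scaling, no filter, at least 1 CPM in 3 libraries, DESeq2 1.42.0 (Wald test), limma-voom (limma 3.58.1), condition only, a replicate block, and each library left out. Exon overlap and transcript lengths came from GENCODE annotation lifted to GRCh37, used for lengths only, and promoters and positions from RefSeq on GRCh38.p14. The GENCODE annotation held 56959 of the 60675 counted genes, so it was not the one used for counting. Gene overlaps in the counting annotation may differ. Summaries used Python 3.11.15 and pandas 2.3.3, and plots used matplotlib 3.10.9. On simulated counts for the control and MTR4 KD comparison (17770 genes, 200 changed 2-fold), the batch model recovered 192 with 16 others called, and condition only recovered 147 with 0 others. The simulated counts were drawn with the batch differences and spread of the batch model, so they cannot decide between the models. A 2-fold change is larger than that of any listed member, and recovery of smaller changes was not tested.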

Additional observations from a re-analysis of the deposited data

How the results depend on the processing

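Scaling by DESeq2 size factors, total counts or upper quartiles, the filters, DESeq2 and limma-voom left 17 to 21 of the 35 genes called. Over all tested genes 19.3% to 21.2% were called under these, or 12.1% without a filter and 27.6% with at least 1 CPM in 3 libraries, and no member changed direction under another scaling or filter. With condition only, 1 gene was higher and 1 lower, and over all genes 267 and 383. Labels number the replicates alike in both groups. Deviations from the group means correlated at -0.24 for the libraries numbered 1, 0.32 for those numbered 2 and 0.35 for those numbered 3. These values followed the library batch: all control and MTR4 KD pairs of the same batch correlated at 0.32 to 0.36, and all others at -0.49 to -0.23. They therefore cannot show whether the numbers pair the libraries. A replicate block in place of the library batch called 1 member higher and 2 lower (342 and 515 over all genes). Leaving out 1 library gave 4 to 5 members higher and 5 to 13 lower, and 1123 to 1381 genes higher and 1286 to 1569 lower over all genes. Without MTR4 KD replicate 3, 9 members were called, beside 14.2% of all tested genes.

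The members' median of -0.06 became -0.0243 with condition only and -0.0267 with the replicate block, and -0.0717 to -0.0296 with 1 library left out. The median over all genes was 0.0119 with total counts, -0.0145 without a filter, and -0.0005 to 0.0119 with 1 library left out. Genes without a call changed sign: with condition only ERN1 (-0.0298), SDF2L1 (-0.0243), MANF (0.12), DERL3 (-0.0039) and CEBPG (0.0022), and with the replicate block ERN1 (-0.0317), SDF2L1 (-0.0232), MANF (0.13), DERL3 (-0.0115) and CEBPG (0.0024). With 1 library left out, CRELD2 ranged from -0.0265 to 0.0172, turning without control replicate 2 or 3 or MTR4 KD replicate 1. SDF2L1 ranged from -0.0055 to 0.0521, turning without control replicate 1. SYVN1 ranged from -0.1792 to 0.0648 and DERL3 from -0.0291 to 0.1876, both turning without MTR4 KD replicate 3. The causes were not tested. At 141 to 184 reads per library, depth limits what DERL3 can show.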
